A study of Homo sapiens with 6 samples.

Results

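Divergent coding promoters are stretches of DNA between the 5' ends of 2 protein-coding genes that lie on opposite strands and are transcribed away from each other. In the GENCODE 44 annotation lifted to GRCh37, the assembly underlying hg19, 883 pairs of coding genes had 5' ends pointing apart at a distance of 1000 bp or less. These pairs held 1703 of the 20162 coding genes, and 62 of those genes were in 2 or more pairs, so that some windows overlap and share peaks. For each pair, a window ran from 500 bp outside one 5' end to 500 bp outside the other, that is, 500 bp into each gene. The other 18459 coding genes, called single genes here, each received 1 window of the same size, which made 19342 windows in all. The median spacing of the pairs was 131 bp (quartiles 69 and 247 bp, range 1 to 995 bp), and 714 pairs (80.9%) were spaced by at most 300 bp.

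The windows were compared with SUMO-2/3 peaks in HL-60 cells, an established line from a human acute myeloid leukaemia. Cells were mock-treated, treated with 2 µM Ara-C, a nucleoside analogue, or treated with 1 µM DNR, an anthracycline, in each case for 2 h. Chromatin carrying SUMO-2/3 was then immunoprecipitated and sequenced, from material of 3 biological replicates pooled before sequencing. Each condition is therefore 1 library and 1 peak list, and 3 input samples of the 6 in the series were not analysed here. The lists held 44265 peaks in mock-treated cells, 72279 under Ara-C and 33355 under DNR. They give positions only, and neither the depth of a library nor the height of a peak was read here. With 1 library per condition, no difference between conditions has a replicate check, no test was made, and a difference in depth or scaling cannot be told apart from a difference between treatments. All intervals are 95% intervals that treat windows as independent, and they cover counting error only. Peak positions carry no expression of marker genes, so the identity of the cells was not checked.

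Divergent coding promoters are often called bidirectional promoters. They are typically CpG islands without a TATA box, and many serve housekeeping genes, such as those for DNA repair, mitochondrial proteins, RNA processing and histones. SUMO-2 and SUMO-3 are small ubiquitin-related proteins that are attached to lysines of other proteins, among them transcription factors and chromatin proteins, and that are removed again by SUMO proteases. A SUMO-2/3 peak marks DNA at which such conjugates were crosslinked. It does not say which protein carried the modification.

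The sequence between the 5' ends is shown for 12 pairs, chosen because their peaks represent the patterns described below. It is the GRCh37 plus strand, 5' to 3', so that the left gene of each name is transcribed leftwards from the base just before the stretch shown and the right gene rightwards from the base just after it. Capitals mark exact matches, on either strand, to the motifs used below: ETS CCGGAAGT, NRF1-type GCGCATGC, CCAAT box CCAAT, GC box GGGCGG, YY1 AAGATGGCG, CRE TGACGTCA, TATA box TATAAA, E-box CACGTG, a palindrome CTCGCGAG and ZNF143-type ACTACAATT. A match is only a match of letters. Positions given with the sequences are those of the sequence, not of a peak. The windows of TIGD1/EIF4E2 (chr2:233415268-233415368) and DDX54/RITA1 (chr12:113623285-113623330) had a peak in all 3 lists.
TIGD1/EIF4E2: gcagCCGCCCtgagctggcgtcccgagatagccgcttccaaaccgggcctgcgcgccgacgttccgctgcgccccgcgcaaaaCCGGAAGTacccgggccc
DDX54/RITA1: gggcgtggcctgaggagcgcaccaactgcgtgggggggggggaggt
HMGB1/USPL1 (chr13:31191735-31191829) and H2BC4/H2AC6 (chr6:26124155-26124372) were among the pairs with most bases under mock peaks, and both also had an Ara-C peak.
HMGB1/USPL1: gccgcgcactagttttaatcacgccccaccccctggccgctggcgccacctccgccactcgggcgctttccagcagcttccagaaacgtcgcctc
H2BC4/H2AC6: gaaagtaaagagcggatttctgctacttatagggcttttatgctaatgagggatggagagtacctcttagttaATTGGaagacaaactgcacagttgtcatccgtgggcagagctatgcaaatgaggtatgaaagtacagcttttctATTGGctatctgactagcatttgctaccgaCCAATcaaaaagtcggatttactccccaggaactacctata
MRE11/ANKRD49 (chr11:94227052-94227144) and SARS2/MRPS12 (chr19:39421404-39421583) are textbook bidirectional promoters with peaks in mock and under Ara-C, and ZBTB4/POLR2A (chr17:7387583-7387684) is one without any peak.
MRE11/ANKRD49: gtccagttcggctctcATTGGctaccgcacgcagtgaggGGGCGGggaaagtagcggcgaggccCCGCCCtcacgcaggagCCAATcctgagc
SARS2/MRPS12: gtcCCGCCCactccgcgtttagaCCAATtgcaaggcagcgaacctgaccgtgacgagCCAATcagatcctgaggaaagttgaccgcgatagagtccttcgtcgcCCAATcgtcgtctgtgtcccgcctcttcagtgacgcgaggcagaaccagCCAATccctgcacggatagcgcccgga
ZBTB4/POLR2A: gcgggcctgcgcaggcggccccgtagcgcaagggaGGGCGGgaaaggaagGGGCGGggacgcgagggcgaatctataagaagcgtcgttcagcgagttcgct
KIAA1143/KIF15 (chr3:44803112-44803212) and PPAT/PAICS (chr4:57301782-57301906) had peaks only in the Ara-C list.
KIAA1143/KIF15: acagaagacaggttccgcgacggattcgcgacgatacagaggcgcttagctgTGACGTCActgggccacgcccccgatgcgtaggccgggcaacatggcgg
PPAT/PAICS: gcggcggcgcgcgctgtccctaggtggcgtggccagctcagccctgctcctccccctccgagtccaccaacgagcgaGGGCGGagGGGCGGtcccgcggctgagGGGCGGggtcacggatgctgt
HELQ/MRPS18C (chr4:84377009-84377084) had peaks in the mock and DNR lists, IFT20/TNFAIP1 (chr17:26662516-26662627) in the mock list only and SIRT6/ANKRD24 (chr19:4182564-4182685) in the DNR list only.
HELQ/MRPS18C: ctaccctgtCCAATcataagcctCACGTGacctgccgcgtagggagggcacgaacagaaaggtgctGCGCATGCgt
IFT20/TNFAIP1: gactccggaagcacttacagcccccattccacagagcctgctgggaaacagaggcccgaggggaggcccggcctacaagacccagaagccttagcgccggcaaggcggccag
SIRT6/ANKRD24: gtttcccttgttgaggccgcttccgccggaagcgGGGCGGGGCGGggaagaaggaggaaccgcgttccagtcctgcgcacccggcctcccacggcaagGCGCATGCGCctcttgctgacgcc

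The first comparison asked how often the promoter of a divergent pair carried a peak, beside a single gene. In mock-treated cells, 273 of 883 pairs had a peak, or 30.9% (28.0 to 34.0), while 15.9% of all windows had one. Under Ara-C 307 pairs had a peak, or 34.8% (31.7 to 38.0), against 19.1% of all windows. Under DNR 31 pairs had a peak, or 3.51% (2.48 to 4.94), against 3.40% of all windows. The share was thus far above that of all windows in mock-treated cells and under Ara-C, and close to it under DNR. Single genes had a peak in 15.2% of windows in mock-treated cells, 18.3% under Ara-C and 3.39% under DNR. The pairs exceeded them by 15.7 percentage points in mock-treated cells (Newcombe interval 12.7 to 18.9) and by 16.4 points under Ara-C (13.3 to 19.7). The difference under DNR was 0.119 points, with an interval of -0.942 to 1.57 that spans 0.

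A pair's window holds the 5' ends of 2 coding genes by construction, so that a peak can be counted for either. Counted per 100 coding 5' ends, the pairs had 15.5 windows with a peak in mock-treated cells, 17.4 under Ara-C and 1.76 under DNR. Per end, the values of the pairs in mock-treated cells and under Ara-C were therefore near the shares of single genes, and under DNR they were lower. Bases were covered more densely as well, with peaks over 6.95% of the bases in pair windows and 3.01% in single-gene windows in mock-treated cells. Under Ara-C these values were 7.91% and 3.67%, and under DNR 0.626% and 0.504%. More than 1 peak was found in 39 pairs in mock-treated cells, in 50 under Ara-C and in 0 under DNR.

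Single genes were not all alike. The 1522 single genes with a noncoding gene starting divergently within 1000 bp had a mock peak in 20.9% of windows, and pairs exceeded them by 10.0 points (6.39 to 13.7). The 975 single genes whose coding partner starts head to head but with overlapping gene ends had one in 25.9%, which pairs exceeded by 4.97 points (0.865 to 9.07). Another 848 single genes with a further coding 5' end within 1000 bp in some other arrangement had one in 24.9%, which pairs exceeded by 6.04 points (1.81 to 10.2). The remaining 15114 single genes had the lowest share, 13.4%. Under Ara-C the shares of these 4 classes were 26.1%, 29.7%, 29.6% and 16.2%, so that the last was again the lowest. Under DNR they were 3.42%, 2.67%, 5.42% and 3.32%, and the interval of each difference from the pairs spans 0.

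The windows of the pairs were also moved 10 kb to either side, to see how often peaks lie nearby. The moved windows had a peak in 3.91% of cases in mock-treated cells (3.10 to 4.92), in 6.12% under Ara-C (5.09 to 7.33) and in 2.72% under DNR (2.06 to 3.59). Moved by 50 kb, the shares were 2.77%, 5.04% and 2.15%. In mock-treated cells and under Ara-C the pairs stood far above both. Under DNR the intervals of the pairs and of the windows moved 10 kb overlap.

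**Figure D1:**
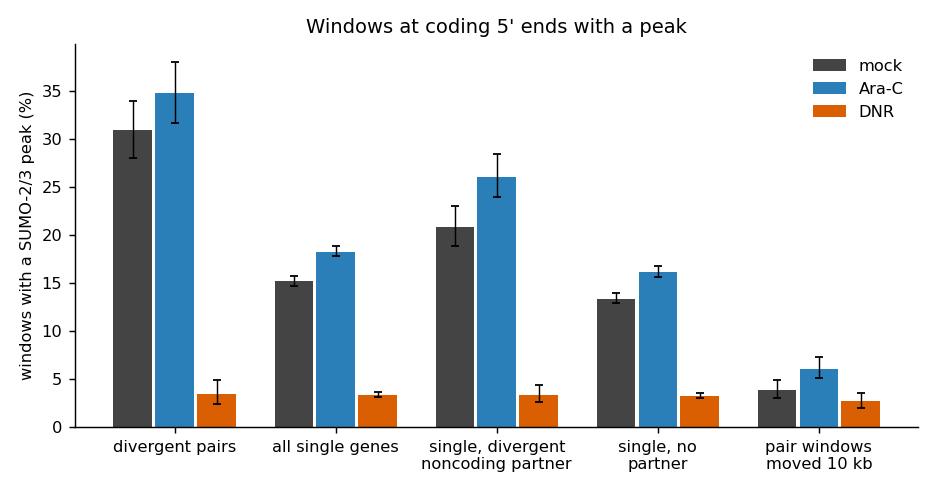
The bars give the percentage of windows with a SUMO-2/3 peak in the mock, Ara-C and DNR lists for 883 divergent pairs, all single genes, single genes with a divergent noncoding partner, single genes without a partner and pair windows moved 10 kb; whiskers are 95% Wilson intervals. The pairs have the highest mock and Ara-C bars, 30.9% and 34.8%, while the DNR bars lie between 2.72% and 3.51% in all classes drawn.

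The next comparison followed single pairs across the lists. No list had a peak at 447 pairs, and 436 pairs (49.4%) had one in at least 1 list, against 26.8% of single genes. The largest group with a peak was 153 pairs with an Ara-C peak alone, 17.3% against 9.31% of single genes. Next came 138 with peaks in mock and Ara-C, 15.6% against 7.81%. A further 114 pairs had a mock peak alone, 12.9% against 6.27%. Pairs with a DNR peak were few, with 13 in all 3 lists (1.47% against 0.823%) and 8 in mock and DNR (0.906% against 0.325%). Another 3 were in Ara-C and DNR (0.340% against 0.379%) and 7 in DNR alone (0.793% against 1.86%).

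Of the 273 pairs with a mock peak, 151 had a peak again under Ara-C, or 55.3% (49.4 to 61.1), beside 56.6% of all windows with a mock peak. Under DNR 21 of the 273 had one, or 7.69% (5.09 to 11.5), beside 7.55% of all windows. Pairs minus single genes, the share with a peak again differed by -1.37 points for Ara-C (-7.58 to 4.69) and 0.153 points for DNR (-2.65 to 4.04). Both intervals span 0, and they still allow several points either way. Among windows without a mock peak, 25.6% of pairs (22.3 to 29.2) and 11.4% of single genes (10.9 to 11.9) had an Ara-C peak. A DNR peak was found at 10 of 610 pairs without a mock peak, 1.64% (0.893 to 2.99), and at 2.65% of such single genes (2.41 to 2.91). Of the 151 pairs with peaks in both mock and Ara-C, 13 also had one under DNR (8.61%, 5.10 to 14.2), near the 9.54% of single genes (8.19 to 11.1).

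Peaks in pair windows, like those at single genes, were wider than most. The windows of pairs held 290 mock peaks, 331 Ara-C peaks and 29 DNR peaks, which are 0.655%, 0.458% and 0.0869% of the lists. Their median width was 200 bp in each list, as was that of peaks at single genes. Peaks outside both kinds of window had a median of 150 bp, the shortest run that was called. In mock-treated cells, 29.7% of the peaks in pairs were at least 300 bp wide, beside 25.4% of those at single genes and 8.50% of the others. Under DNR these shares were 20.7%, 9.59% and 5.17%. Taken peak by peak, 44.8% of the mock peaks in pairs shared at least 1 base with an Ara-C peak and 5.17% with a DNR peak. For mock peaks at single genes these shares were close, at 43.8% and 4.37%. Both shares were lower for the other mock peaks. Of the 29 DNR peaks in pairs, 16 (55.2%) overlapped a mock peak, against 20.2% of DNR peaks at single genes and 4.14% of other DNR peaks. The few DNR peaks at pairs thus mostly lay where the mock list also had one. Mock peaks covered more of the bases in pair windows, 6.95% against 3.01% at single genes. How far this bears on the overlap was not tested.

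Peaks gathered at the middle of the window. The position midway between the 5' ends was covered by a mock peak at 13.1% of pairs, by an Ara-C peak at 15.9% and by a DNR peak at 0.906%. Between 2 and 3 kb away, the mean cover fell to 0.696%, 0.831% and 0.200%. At single genes the centre of the window was covered in 5.00%, 5.85% and 0.547% of cases. The highest cover for pairs was at the centre in the mock and Ara-C lists. For DNR the highest value, 1.02%, was reached at 5 positions, of which 4 lay within 250 bp of the centre and 1 lay 950 bp to the left.

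**Figure D2:**
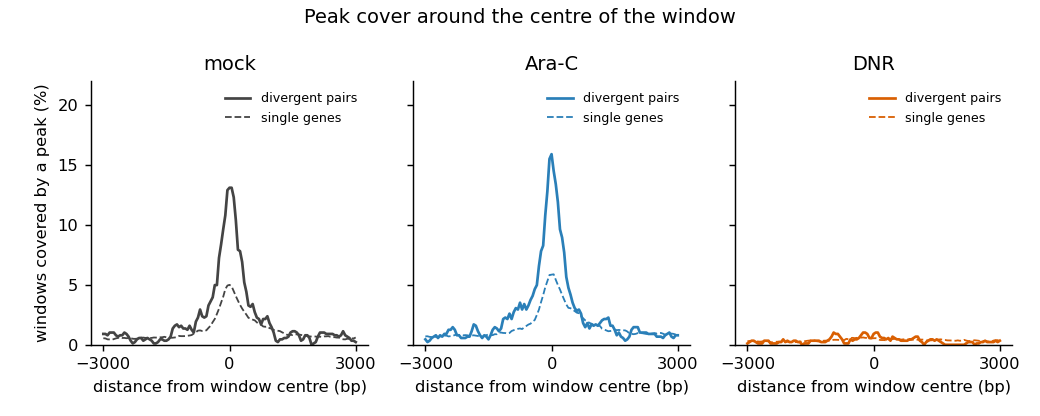
Each panel plots, for 1 list, the percentage of windows covered by a peak against the distance in bp from the window's centre, for pairs (solid) and single genes (dashed), with the gene to the right for single genes and the plus-strand gene to the right for pairs. The curve of the pairs rises to 13.1% in mock and 15.9% under Ara-C at the centre, and stays at or below 1.02% under DNR.

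The median distance from a peak's midpoint to the pair's centre was 180 bp in mock-treated cells, 189 bp under Ara-C and 249 bp under DNR. Of the 312 combinations of a mock peak and a pair window, the midpoint lay between the 5' ends in 85, inside the minus-strand gene in 100 and inside the plus-strand gene in 127. In 58 of them (18.6%) the peak covered both 5' ends. For pairs spaced by more than 200 bp, the midpoint was between the ends in 40.4% of 136 combinations and both ends were covered in 5.88%. Under Ara-C the corresponding values for such pairs were 43.6% of 140 and 2.86%. The short spacing of most pairs limits how finely a peak can be placed at one gene or the other, since the grid of the lists is 50 bp.

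Spacing was related to the share with a peak in no simple way. In 5 classes with upper limits of 100, 200, 300, 500 and 1000 bp, holding 343, 253, 118, 93 and 76 pairs, the mock shares were 28.9%, 24.1%, 35.6%, 48.4% and 34.2%. The highest, 48.4% (38.5 to 58.4), belonged to the 93 pairs spaced by over 300 and up to 500 bp, and its interval lies above that of the 253 pairs spaced by over 100 and up to 200 bp (19.3 to 29.7). The Ara-C shares were 34.4%, 29.2%, 46.6%, 34.4% and 36.8%, with the highest, 46.6% (37.9 to 55.6), in the 118 pairs spaced by over 200 and up to 300 bp. The 2 classes named had overlapping intervals in each list, 38.5 to 58.4 and 27.5 to 44.6 in mock-treated cells and 25.5 to 44.5 and 37.9 to 55.6 under Ara-C. The DNR shares ran from 2.33% to 6.45% with overlapping intervals. At single genes, given windows of the same sizes, the mock shares stayed between 14.7% and 16.5%. Of the 17 pairs just inside the limit, spaced by over 900 and up to 1000 bp, 4 had a mock peak, 8 an Ara-C peak and 0 a DNR peak, and of the 10 pairs up to 100 bp beyond it, 7, 4 and 0.

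**Figure D3:**
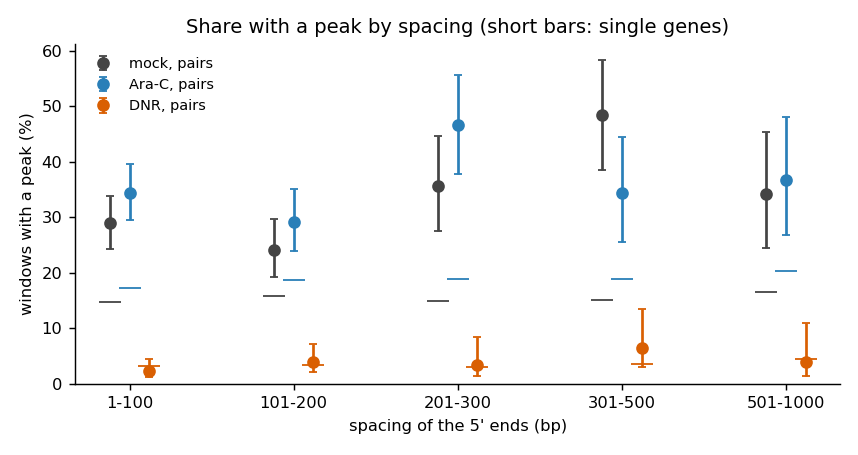
The percentage of windows with a peak is plotted against the spacing of the 5' ends in 5 classes, with 95% Wilson intervals, and short horizontal bars give single genes with windows of those sizes. The mock points of the pairs lie between 24.1% and 48.4%, above the single genes in every class, and the DNR points lie between 2.33% and 6.45%.

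Base composition differed between the kinds of window. The windows of pairs held a median of 7.09 CpG dinucleotides per 100 bp (quartiles 5.78 and 8.70) and those of single genes 5.00 (1.87 and 7.53), with a median GC content of 61.2% and 57.1%. Windows were therefore set side by side within 5 classes of equal number by CpG content. In the 3 richest classes the mock share was 35.1%, 32.7% and 29.3% for pairs and 23.1%, 23.6% and 18.0% for single genes. The differences were 12.1 points (5.92 to 18.7), 9.10 points (4.06 to 14.5) and 11.3 points (6.10 to 17.1). Under Ara-C they were 13.1, 8.20 and 11.7 points, and all 3 intervals were above 0. Under DNR they were -1.67, -0.0526 and 0.331 points, with intervals that span 0. The 2 poorest classes held only 11 and 47 pairs. Weighted to the CpG classes of the pairs, single genes would have a share of 20.7% in mock-treated cells, 24.1% under Ara-C and 3.93% under DNR, so that part of the gap between pairs and single genes moved with CpG content.

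**Figure D4:**
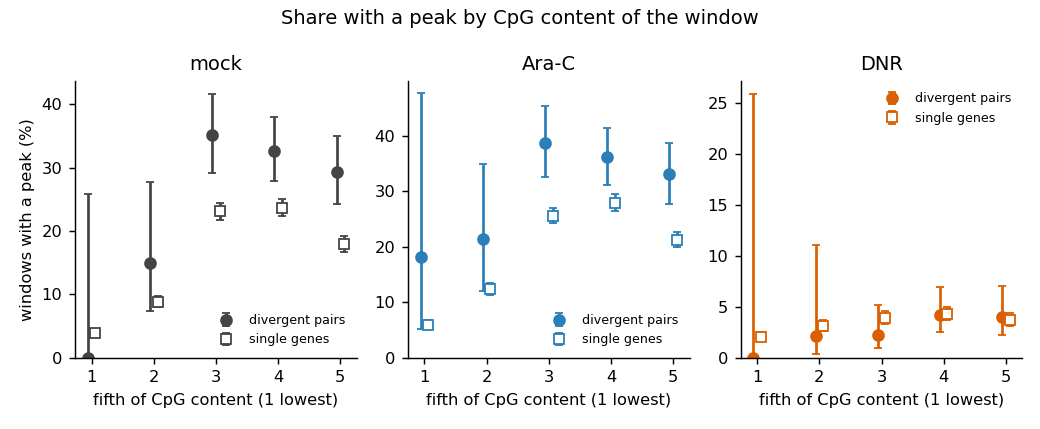
Each panel gives, for 1 list, the percentage of windows with a peak in 5 classes of CpG content, from 1 (lowest) to 5 (highest), for pairs (filled) and single genes (open) with 95% Wilson intervals. In classes 3 to 5 the mock values are 29.3% to 35.1% for pairs and 18.0% to 23.6% for single genes, and the vertical scales differ between panels.

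The motif content of the windows was compared next. ETS factors and NRF1 are activators of many housekeeping genes, and their exact motifs were found in 19.1% and 12.3% of pairs, against 6.44% and 6.05% of single genes and 7.02% and 6.34% of all windows. The GC box, bound by Sp1-type factors, was in 93.2% of pairs and 71.0% of single genes (72.0% of all windows). The YY1 motif was in 7.25% and 3.75% (3.91% of all), and the CRE, bound by CREB and ATF proteins, in 6.23% and 3.14% (3.28% of all). The CCAAT box was at 70.0% and 71.9% (71.8% of all) and the E-box at 23.3% and 20.0% (20.1% of all). The TATA box was less frequent in pairs, 20.3% against 35.1% (34.4% of all). The palindrome was in 4.30% and 2.06% (2.17% of all) and the ZNF143-type motif in 1.70% and 0.926% (0.962% of all). The core consensus of CTCF, an insulator protein, was in 3 pairs (0.340%) and in 0.715% of single genes (0.698% of all).

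For the ETS motif, a mock peak was present at 58 of the 169 pairs with it, 34.3% (27.6 to 41.8). Of single genes with it, 32.1% had one (29.5 to 34.8). The difference was 2.25 points (-5.01 to 10.1), and under Ara-C, with 42.0% and 34.8%, it was 7.16 points (-0.530 to 15.2). Without the ETS motif, the mock shares were 30.1% of pairs and 14.1% of single genes. This gap was wider than with the motif, although the difference between the gaps was not tested. For the NRF1 motif the mock shares were 25.7% of pairs and 20.1% of single genes, a difference of 5.54 points (-2.13 to 14.8), while the Ara-C difference was 13.2 points (4.26 to 22.9). For the CCAAT box the difference was 18.8 points (15.1 to 22.6) in mock-treated cells, with peaks at 34.1% of pairs that held it and 23.4% of pairs that did not. Pairs with a CRE had a mock peak in 40.0% of 55 cases (28.1 to 53.2) and an Ara-C peak in 25.5% (15.8 to 38.3), and these intervals overlap. Among the sequences shown above, the ETS match of TIGD1/EIF4E2 lies within its mock peak, and HMGB1/USPL1, with one of the widest peaks, has no match between its 5' ends.

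Pairs were then grouped by the genes they hold, in lists chosen by symbol. No list is tested, and each is read beside the 30.9%, 34.8% and 3.51% of all pairs. Histone genes, which code for the proteins of the nucleosome, formed 12 pairs, of which 8 had a mock peak (66.7%, 39.1 to 86.2), 7 an Ara-C peak and 0 a DNR peak. Among 48 single histone genes, 45.8% had a mock peak and 41.7% an Ara-C peak. The mock peaks covered 650 bp of the H2BC4/H2AC6 window, 618 bp at H2BC21/H2AC20 and 550 bp at H2BC11/H2AC11, while H2AC1/H2BC1, H3C7/H2BC9 and H2AC14/H2BC14 had no peak in any list. H2AC25/H2BC26 had Ara-C peaks only. The pairs H2AC17/H2BC17 and H3C12/H2BC17 share the gene H2BC17 and the same peaks. Histone genes are near-identical copies, and only uniquely placed reads were kept, so reads from the copies may be lost there.

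Cell cycle and mitosis genes had a like count, with a mock peak at 8 of 13 pairs (61.5%, 35.5 to 82.3), an Ara-C peak at 9 and a DNR peak at 0. Single genes of that list had a mock peak in 28.6% and an Ara-C peak in 17 of 63 cases. NOL8/CENPP, with a centromere protein gene, had 350 bp covered in mock-treated cells and 500 bp under Ara-C. IDE/KIF11, with the gene of a spindle motor, had 262 and 512 bp, and AURKA/CSTF1, with the gene of a mitotic kinase, 200 and 400 bp. METTL4/NDC80, with a kinetochore gene, had 150 and 350 bp. LMBRD2/SKP2 and CENPK/PPWD1 went the other way, each with 200 bp in mock-treated cells and 0 under Ara-C. SHC1/CKS1B had 150 bp in both. CENPB/CDC25B and CDC26/PRPF4 had no peak.

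DNA replication and repair genes were in 40 pairs, with a mock peak at 7 (17.5%), an Ara-C peak at 14 (35.0%) and a DNR peak at 0. Single genes of that list were above the pairs in both lists, at 24.2% of 91 in mock-treated cells and 42.9% under Ara-C. LIG4/ABHD13, with the ligase of end joining, had 350 bp under mock and 250 bp under Ara-C peaks. OSGEP/APEX1, with the main abasic-site endonuclease, had 350 bp under Ara-C peaks alone, and PCNA/CDS2, with the replication clamp, 200 bp. RAD52/ERC1 had 300 bp and TOP3A/SMCR8 250 bp under mock peaks alone. TPRA1/MCM2, TMEM258/FEN1 and LIG1/ZSWIM9, which hold genes of the replicative helicase, a flap endonuclease and a ligase, had no peak.

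Among genes of the ribosomes, the mock shares of the pairs were below those of single genes, at small numbers of pairs. Mitochondrial ribosomal protein genes had a mock peak at 6 of 18 pairs (33.3%), an Ara-C peak at 9 and a DNR peak at 1, while 45.9% of 61 single genes had a mock peak and 47.5% an Ara-C peak. Cytoplasmic ribosomal protein genes had a mock peak at 3 of 12 pairs, an Ara-C peak at 6 and a DNR peak at 0, against 41.7% of 72 single genes in mock-treated cells and also 41.7% under Ara-C. PIDD1/RPLP2 and RPL12/LRSAM1 each had 350 bp under mock peaks and none under Ara-C, whereas RPL35/ARPC5L, with 250 bp, and MED22/RPL7A, with 350 bp, had Ara-C peaks only. Oxidative phosphorylation genes, which code for the respiratory chain and its assembly factors, had a mock peak at 9 of 27 pairs (33.3%), an Ara-C peak at 7 and a DNR peak at 1, and 82 single genes had a mock peak in 23.2% and an Ara-C peak in 28.0% of cases, beside 33.3% and 25.9% of the pairs. Genes with symbols starting in PSM, nearly all proteasome subunits, had a mock peak at 0 of 7 pairs, with an upper limit of 35.4%, and an Ara-C peak at 1, whereas 32.6% of 43 single genes had a mock peak and 34.9% an Ara-C peak. Of the 7, 1 is held by PSME3IP1, which is not a subunit. Pairs that share a gene were counted separately in these lists. NDUFA11/ENSG00000267314 and NDUFA11/VMAC thus count the same mock peak of 200 bp, and MRPL47/NDUFB5 and MRPL47/ENSG00000288698 the same Ara-C peak of 200 bp.

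Chaperone genes had a mock peak at 5 of 15 pairs and an Ara-C peak at 7, led by APTX/DNAJA1 with 623 and 500 bp, and 26.4% of 72 single genes had a mock peak and 30.6% an Ara-C peak. Zinc finger genes named ZNF, many of which code for repressors that recruit chromatin modifiers, had a mock peak at 12 of 30 pairs (40.0%, 24.6 to 57.7), an Ara-C peak at 11 and a DNR peak at 3. Of these pairs, ZNF891/ZNF10 and ZNF891/ENSG00000256825 hold the same peaks and were counted separately in every list. Both are among the 3 with a DNR peak. Single ZNF genes had a mock peak in 15.6% and an Ara-C peak in 19.8% of 481 cases. Splicing and RNA helicase genes had a mock peak at 7 of 27 pairs (25.9%), an Ara-C peak at 8 and a DNR peak at 1, and 115 single genes had a mock peak in 36.5% and an Ara-C peak in 39.1% of cases. RNA polymerase subunit genes had them at 3, 4 and 1 of 9 pairs, and aminoacyl-tRNA synthetase genes at 2, 2 and 0 of 3. Among single genes of these lists, mock peaks were at 8 of 25 and 17 of 32, and Ara-C peaks at 8 and 14. Collagen genes had none at 2 pairs and a mock peak at 2 and an Ara-C peak at 4 of 40 single genes. No gene of the SUMO pathway list was in a divergent coding pair.

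**Figure D5:**
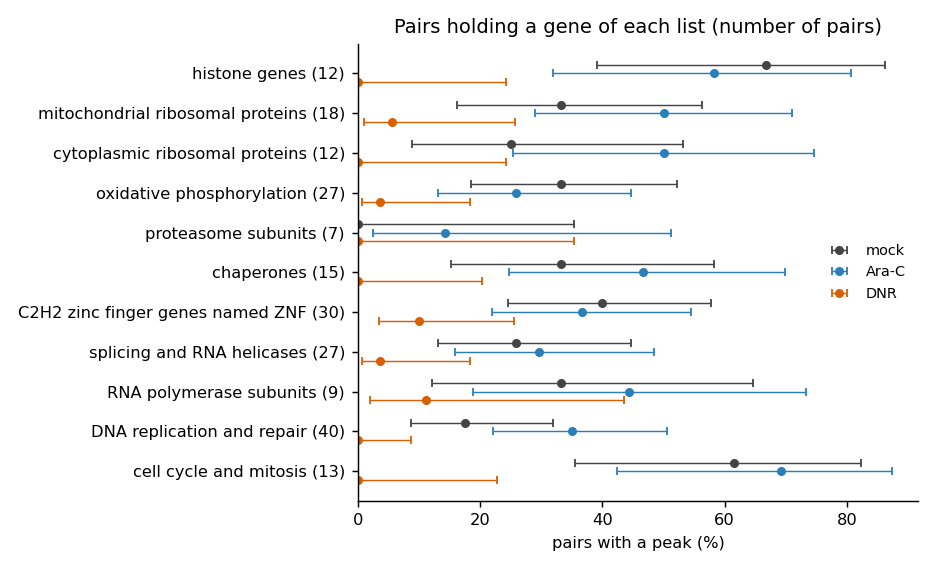
Points give the percentage of pairs with a mock, Ara-C or DNR peak for each gene list, with the number of pairs in brackets and 95% Wilson intervals as bars; the lists with 2 or 3 pairs are left out. Histone pairs (66.7%) and cell cycle pairs (61.5%) have the highest mock points, and most intervals are wide and overlap.

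Of 30 pairs put by symbol on a list of textbook bidirectional promoters, 11 met the rule and 19 did not. Some listed pairs are not head-to-head neighbours in this annotation. The 19 are therefore not a count of established bidirectional promoters that the rule missed. In 4 of the 19 the annotated 5' ends lay past each other by at most 1000 bp, so that the gene ends overlap, as for SURF1/SURF2. In 10 they lay past each other by more. The plus-strand end minus the minus-strand end ran there from -1064 bp at CTSA/NEURL2 to -324362 bp at PEX14/CASZ1. In 1 they were too far apart, and for 4 no distance was obtained. UFD1/CDC45, with a factor of the replicative helicase, had a 400 bp mock peak at chr22:19466651-19467050 and a 200 bp Ara-C peak within it. MRE11/ANKRD49, with a nuclease of double-strand break repair, had a mock peak of 200 bp and 2 Ara-C peaks of 200 bp each. SARS2/MRPS12, which pairs a mitochondrial tRNA synthetase with a mitochondrial ribosomal protein, had peaks of 400 bp in mock and 350 bp under Ara-C, both centred inside SARS2. PPAT/PAICS, whose products act in purine synthesis, had an Ara-C peak of 150 bp only. PSMB1/TBP, with the TATA-binding protein and the widest spacing of all, 995 bp, had 2 Ara-C peaks. None of these 5 had a DNR peak. PDCD10/SERPINI1, PRKDC/MCM4, SIRT3/PSMD13, NPAT/ATM, ZBTB4/POLR2A and TK1/AFMID had no peak in any list.

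The pairs with peaks in all 3 lists formed 13 windows, of which 2 repeat the same peaks with another annotated gene (BORCS8-MEF2B beside MEF2B, and ENSG00000256825 beside ZNF10). CHCHD10/MMP11, a mitochondrial protein and a matrix metalloprotease, had 800 bp of its window covered in mock-treated cells, 550 bp under Ara-C and 200 bp under DNR. Its DNR peak lay at chr22:24110701-24110900, overlapping the right mock peak. MEF2B/RFXANK, 2 genes of transcription regulators, had 500 bp covered in mock, 250 bp under Ara-C and 500 bp under DNR. The DNR peak there, at chr19:19302701-19303200, was as wide as the mock peak. ADAT2/PEX3, a tRNA deaminase subunit and a peroxisome biogenesis factor, had 550, 600 and 250 bp, and MORC2/TUG1, with a chromatin-silencing ATPase, 600, 500 and 150 bp. METTL26/MCRIP2 had 450, 200 and 400 bp.

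TIGD1/EIF4E2, with a cap-binding protein, had 300, 700 and 119 bp covered. Its mock peak covered the centre of the pair and its DNR peak 532.5 bp to the right, touching only the Ara-C peak. A peak in all 3 lists was thus not always the same stretch of DNA. TUFM/SH2B1, with a mitochondrial elongation factor and a signalling adaptor, differed likewise, with a mock peak inside TUFM at chr16:28857451-28857650 and Ara-C and DNR peaks inside SH2B1, at chr16:28858151-28858350 and chr16:28858001-28858350. At DDX54/RITA1, with an RNA helicase and a regulator of Notch signalling, all 3 peaks began at the same base, chr12:113623301, and were 200, 450 and 150 bp wide. PPP1R13L/POLR1G, with an inhibitor of p53 and a subunit of RNA polymerase I, had 450, 500 and 150 bp covered. KCTD21/USP35, with a deubiquitinase, had 400, 250 and 300 bp, and ZNF891/ZNF10 291, 200 and 250 bp.

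The window with most mock cover was GNL1/PRR3, with 900 bp in mock-treated cells, 750 bp under Ara-C and 0 under DNR. HMGB1/USPL1 came after CHCHD10/MMP11, with 1 peak of 700 bp at chr13:31191551-31192250 and an Ara-C peak of 750 bp. HMGB1 is an abundant chromatin protein, and USPL1 is a SUMO protease that the SUMO pathway list did not contain. EXD1/CHP1 had 637 and 487 bp, APTX/DNAJA1, with a DNA end-processing enzyme and a co-chaperone, 623 and 500 bp, and MPLKIP/SUGCT 600 and 450 bp. EMC1/MRTO4, MORC2/TUG1 and NUP37/PARPBP also had 600 bp in mock, and NUP37/PARPBP had 150 bp under Ara-C and 0 under DNR. Among all 12 pairs with 600 bp or more, CHCHD10/MMP11, EMC1/MRTO4 and MORC2/TUG1 had a DNR peak, and only EMC1/MRTO4 lacked an Ara-C peak.

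The 8 pairs with mock and DNR peaks but no Ara-C peak were led by EMC1/MRTO4, with a subunit of an endoplasmic reticulum insertase and a ribosome biogenesis factor. It had 600 bp covered in mock and 200 bp under DNR. HELQ/MRPS18C, FBXW5/C8G and C19orf73/PPFIA3 had 300 bp in mock and 150 bp under DNR each, and BRAP/ACAD10 had 250 and 200 bp. In all 5 the DNR peak overlapped a mock peak. Mock peaks without any other were broadest at PIGN/RELCH, with 550 bp. XNDC1N/RNF121, its read-through form XNDC1N-ZNF705EP-ALG1L9P/RNF121, CDCA3/USP5 and IFT20/TNFAIP1 had 450 bp each.

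Pairs with Ara-C peaks alone were led by KRTCAP2/TRIM46, with a single peak of 750 bp at chr1:155145451-155146200. TBC1D10B/MYL11 had 655 bp covered, PPIL3/NIF3L1 550 bp, and SF3B6/FAM228B, with a splicing factor, and KIAA1143/KIF15, with a mitotic kinesin, 450 bp each. FKBP14/PLEKHA8 and SDF2/SUPT6H also had 450 bp. The 7 pairs with DNR peaks alone had less cover. The most was 299 bp at MDH1B/FASTKD2, followed by 250 bp at TBC1D16/CCDC40 and SIRT6/ANKRD24, the latter with a chromatin deacetylase, and 200 bp at PTH2/GFY and PLAGL2/POFUT1.

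The pairs' share exceeded that of single genes on 23 of 23 chromosomes with pairs in the mock list, on 21 in the Ara-C list and on 8 in the DNR list. The mock share of the pairs was highest on chromosome 18, with 7 of 9 pairs (77.8%), and on chromosome 13, with 10 of 16 (62.5%). Single genes also had their highest mock share on these chromosomes, 26.1% on each. The share of the pairs was lowest on chromosome X, with 1 of 24 (4.17%), where single genes also had few (4.01%). On chromosome 19, 31 of 74 pairs had a mock peak and 19 an Ara-C peak. Of the 31 pairs with a DNR peak, 7 were on chromosome 19, 4 on chromosome 12 and 3 each on chromosomes 1 and 22. Many chromosomes have too few pairs for their shares to be ordered.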

How the data were processed

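HL-60 cells were profiled by SUMO-2/3 ChIP-seq, with 1 pooled library for each of 3 conditions. The deposited files are peak positions. Per the labels and the study's methods, the authors aligned single-end reads to hg19 with CASAVA 1.8.2. Pasha kept uniquely placed reads and removed piled-up reads (threshold 5 in mock, 4 in the treated libraries). It extended reads to 210 bp (220 bp for DNR), counted 50 bp bins, scaled them and subtracted the input. Peaks were runs above a signal of 32, with gaps up to 100 bp and a length over 100 bp. These authors' positions have no score unit, and the same threshold acts differently on libraries of unlike depth, which was not read here.

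Here, a gene's 5' end was that of its GENCODE 44 record. Single-gene windows ran 500 bp into the gene and 500 bp plus the spacing of 1 pair upstream, with spacings assigned in genome order. In 33 cases a single-gene window touched a pair window. A window had a peak when at least 1 base was shared. The mitochondrial chromosome was left out. Window counts had 0 differences from bedtools 2.31.1, and the steps were tested on simulated data. Shares carry Wilson intervals and differences Newcombe intervals at 95%. Motifs were exact matches on both strands, and a GC box can overlap another. Python 3.11.15, numpy 2.4.6, pandas 2.3.3, scipy 1.17.1 and pysam 0.24.0 were used. Alternatives covered peak width, overlap, spacing, flank, 5' ends, the placement and choice of single genes and a dense region. The pairs named are textbook pairs that are members, pairs with peaks in all lists, the 10 with most mock cover (ties in genome order; NUP37/PARPBP, FKBP14/PLEKHA8 and SDF2/SUPT6H, level with the last of their pattern, were added after their values were seen) and the 5 with most cover in each of 4 other patterns, except 1 pair with high mock cover that is not reported here; genes in the gene lists were named as examples after their values were seen. The members and lists were chosen with earlier results of these data known.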

Additional observations from a re-analysis of the deposited data

How the results depend on the processing

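Under 11 alternatives, 10 results gave 110 values, of which 20 could not change because the alternative concerned single genes or a region without pairs. Of the other 90, 9 moved beyond the counting interval of the value reported, and no difference whose interval lay clear of 0 changed sign. With peaks of at least 200 bp only, which leaves fewer peaks, pairs with a peak were 23.1% in mock-treated cells and 26.5% under Ara-C, and the differences from single genes were 12.4 and 13.0 points. The difference under DNR was then 0.795 points (-0.0910 to 2.08). A flank of 250 bp, which narrows each window, gave 27.3% and 30.7%. A flank of 1000 bp, which widens it, gave 35.8% in mock-treated cells, 40.1% under Ara-C and 5.89% under DNR. The differences in the share of mock windows with a peak again lay near 0 throughout and took either sign, from -1.92 to 1.36 points for Ara-C and from -0.369 to 1.26 points for DNR. Counting overlapping pair windows once, an alternative chosen after seeing the data, changed no result by that measure and left 821 regions. Leaving out the part of chromosome 8 that is dense in every list removed 0 pairs. No paired analysis was possible because the lists come from single pooled libraries. For the same reason no replicate could be left out. The depth, which was not read here, limits any comparison between the lists, above all for the 31 pairs with a DNR peak.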
